A study of Mus musculus with 13 samples.

Results

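STAT5 tetramer-deficient Th17 cells were compared with wild-type (WT) Th17 cells, using the 4 mRNA sequencing libraries of this comparison out of 13 in the series. The groups hold 2 WT and 2 DKI libraries, where DKI stands for mice with knock-in changes in both Stat5a and Stat5b, so that STAT5 forms dimers but not tetramers. A gene was included where its level was at least 1 RPKM (reads corrected for the length of the gene and for the total assigned in each library) in 2 or more of these 4 libraries, which held for 11078 of 21073 genes. All donors were C57BL/6J mice, and their age is not given in the labels. They were immunized with a peptide of myelin oligodendrocyte glycoprotein in complete Freund's adjuvant. The series' design text states that these mice received no pertussis toxin, although a protocol shared by all samples of the series describes it. Cells of spleen and lymph nodes were taken 14 days after immunization, expanded with the same peptide under Th17 conditions, and sorted for CD4+ T cells 3 days later. The knock-in alleles are present in every cell of the donors and not only in T cells. The labels of these 4 libraries name no added CCL17, and they do not say whether the libraries of a group came from separate mice or cultures. The tests below therefore measure the spread between libraries, which may be technical. The limma SE and p given for a gene use a spread estimated from all 10 Th17 libraries of the series. They can therefore differ from what these 4 libraries alone would give.

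STAT5A and STAT5B are transcription factors that are phosphorylated downstream of the receptors for interleukin-2 (IL-2), IL-7, IL-15 and GM-CSF. Phosphorylated STAT5 binds DNA as a dimer at a GAS element, a palindrome with the core TTCNNNGAA, and dimers bound at neighbouring elements can join into a tetramer through their N-terminal domains. In CD4+ T cells, IL-2 signalling through STAT5 is known to restrain the Th17 and follicular helper fates and to favour effector and regulatory fates. Th17 cells depend on IL-6, which signals through STAT3, a factor that recognizes similar elements.

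The sorted cells carried the marks of CD4+ T cells in every library. The library medians of 11 T cell identity genes were 8.27 and 8.39 (WT) and 8.21 and 8.32 (DKI) on the log2(RPKM + 1) scale, which is the scale of every level below, and Cd4 itself lay between 8.63 and 8.85. Cd8a was below 1 RPKM in all of them. Il17a, Il17f, Il23r and Ccr6, which mark Th17 cells, were all detected. Assigned reads were estimated at 18000000 and 20100000 for WT and at 18000000 and 20000000 for DKI.

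Distances between libraries did not follow the genotype. Over the 11078 genes, the median absolute log2 difference was 0.166 between the WT libraries and 0.232 between the DKI libraries. WT replicate 2 and DKI replicate 2 were the closest pair of all, at 0.162, and 1.38% of genes differed by 2-fold or more between them. Between the DKI libraries this share was 5.5%, and between the WT libraries 2.98%. Each result is therefore given by library, with WT replicate 1 and 2 first and DKI replicate 1 and 2 second, and as the DKI minus WT difference within replicate 1 and within replicate 2. The labels do not state that equal numbers belong together.

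No gene passed the test in either direction in the fit without a replicate block. In this limma fit of all 10 Th17 libraries of the series, 0 of 11078 genes (0%) had a Benjamini-Hochberg adjusted p under 0.05, and the smallest adjusted p was 0.0659. At an unadjusted p under 0.05, 914 genes (8.25%) were higher and 965 (8.71%) lower in DKI cells. The outcome depended on single libraries. Without DKI replicate 2 the same fit called 273 genes higher and 286 lower, and without WT replicate 2 it called 63 and 63. Without WT replicate 1 it called 0 higher and 1 lower, and without DKI replicate 1 it called 1 and 3. With 1 library left in a group, its spread is assumed to be that of the other Th17 groups. In a limma fit of the 4 libraries alone, 645 genes had an unadjusted p under 0.05 and the smallest adjusted p was 0.64. An exact two-sided permutation test of 2 against 2 libraries cannot go below 0.333.

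The description below therefore rests on whether the groups overlap. Both DKI libraries lay above both WT libraries for 2199 genes (19.9%) and below them for 2226 genes (20.1%), 4425 genes in all (39.9%). Adding the condition that the differences of replicate 1 and replicate 2 were alike, the larger at most 2 times the smaller, left 1085 genes higher (9.79%) and 1113 lower (10%). These percentages are the background for every count below. The nearest libraries of the groups were 2-fold or more apart for 2 genes higher (0.0181%) and 11 lower (0.0993%) in DKI cells. The 2 higher ones, Ighd2-3 and a kappa light chain variable segment, and 7 of the lower ones, such as Traj44 and Traj41, are antigen receptor segments. The other 4 were Slc15a2, Saa3, Thbs1 and Rnf213, of which Thbs1 and Rnf213 were chosen after their values were seen. Thbs1, the gene of the matrix protein thrombospondin-1, stood at 4.01 and 2.72 in the WT and 1.18 and 1.54 in the DKI libraries. Rnf213, an interferon-induced ubiquitin ligase gene, stood at 8.55 and 7.64 against 5.97 and 6.59. For both, WT replicate 1 was the highest library.

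The STAT5 genes themselves were transcribed in both genotypes. Stat5a (Entrez 20850, chr11:100859351-100885169 in GRCm38.p6, the RefSeq assembly of the mm10 build) was at 5.43 and 5.53 in the WT and 5.42 and 5.43 in the DKI libraries. Stat5b, its neighbour (Entrez 20851, chr11:100780731-100859004), was at 6.24 and 6.31 in the WT and 5.93 and 6.02 in the DKI libraries. Both DKI libraries thus lay slightly below WT for Stat5b, with a log2 difference of -0.30 (SE 0.10, limma adjusted p 0.212). Stat3, which lies in the same cluster and drives the Th17 program, showed the same arrangement, with 7.20 and 7.23 in WT and 6.93 and 6.89 in DKI cells (log2 difference -0.31, SE 0.15, limma adjusted p 0.317). Gene levels do not show whether the knock-in changes are present, since they do not remove the transcripts.

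Genes of the IL-2 and STAT5 response were spread to both sides. Of 30 tested members, 6 were higher and 6 lower in both DKI libraries (20% each), close to the background, and their median log2 difference was -0.04, against 0.03 over all genes. Their promoters were searched for the element that STAT5 recognizes. RefSeq windows from 250 bases before to 50 bases after a transcription start, 300 bases in all, were searched on either strand for the GAS core TTCNNNGAA, and 8669 of the tested genes had at least 1 window (11027 windows). The core occurred in 6.94% of all windows and in 31.2% of those of this list (10 of 32). Printed here are windows of 2 list members, Cish and Il12rb2, and of Bcl6, which IL-2 and STAT5 are known to repress, because they carry the contrast described next. They are RefSeq windows of GRCm38.p6, 5′ to 3′ on the gene's strand, with GAS cores in capitals. They lie at Bcl6 (chr16:23981234-23981533, minus strand, 3 cores), Cish (chr9:107296409-107296708, plus strand, 2 cores) and Il12rb2 (chr6:67376139-67376438, minus strand, 1 core).
Bcl6: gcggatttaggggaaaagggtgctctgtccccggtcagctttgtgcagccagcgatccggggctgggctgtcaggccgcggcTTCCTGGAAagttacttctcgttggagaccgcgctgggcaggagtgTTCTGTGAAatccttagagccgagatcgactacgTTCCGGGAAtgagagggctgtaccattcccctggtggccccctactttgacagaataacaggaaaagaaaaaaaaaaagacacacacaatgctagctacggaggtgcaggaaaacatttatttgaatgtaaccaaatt
Cish: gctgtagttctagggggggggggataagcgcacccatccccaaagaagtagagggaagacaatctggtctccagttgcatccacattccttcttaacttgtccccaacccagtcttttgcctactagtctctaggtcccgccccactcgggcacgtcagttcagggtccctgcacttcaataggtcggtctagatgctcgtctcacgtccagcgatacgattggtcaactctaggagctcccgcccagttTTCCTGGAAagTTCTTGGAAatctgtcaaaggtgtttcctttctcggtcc
Il12rb2: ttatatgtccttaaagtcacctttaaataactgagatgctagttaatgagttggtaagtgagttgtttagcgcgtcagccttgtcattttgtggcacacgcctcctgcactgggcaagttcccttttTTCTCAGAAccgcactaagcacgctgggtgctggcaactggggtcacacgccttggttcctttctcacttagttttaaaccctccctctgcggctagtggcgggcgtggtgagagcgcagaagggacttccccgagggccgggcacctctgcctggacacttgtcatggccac

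Cish, a feedback inhibitor of cytokine receptors whose promoter holds a close pair of GAS cores, stood at 6.05 and 5.98 in the WT and 6.11 and 5.95 in the DKI libraries, so its groups overlapped. Socs2, another STAT5-induced inhibitor, also overlapped, at 3.40 and 3.91 against 3.81 and 4.07. Bcl6, with 3 cores in the printed window and 1 core in another (chr16:23988803-23989102), was lower in both DKI libraries (4.54 and 4.37 against 3.67 and 3.70). Il12rb2, with a single core, was higher in both (6.70 and 6.46 against 7.25 and 7.24). Across the whole comparison, the core was in 7.06% of windows of genes higher and in 6.45% of windows of genes lower in both DKI libraries, beside 6.94% of all windows. Windows with 2 or more cores made up 0.408% of all, 0.281% of the higher and 0.305% of the lower set. These sets were added after the data were seen, because genes 2-fold apart left 0 windows for the higher and 3 for the lower direction. A match is a description of letters and not of binding, and tetramers may act at elements outside these windows.

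Of the IL-2 receptor chain genes, Il2ra and Il2rb were higher in both DKI libraries and Il2rg overlapped, while other targets were mixed. Il2ra, the gene of the high-affinity IL-2 receptor chain CD25, was at 8.10 and 8.13 in the WT and 8.66 and 8.32 in the DKI libraries. Il2rb, which encodes the signalling chain shared with IL-15, was at 7.70 and 7.92 in the WT and 8.21 and 8.27 in the DKI libraries, with alike differences of 0.50 and 0.35. Id2, a repressor of E proteins that effector T cells express, separated the groups with little spread, at 7.34 and 7.33 against 7.77 and 7.72 (log2 difference 0.41, SE 0.11, limma adjusted p 0.159). On the other side, Il21r, the receptor gene for IL-21, was at 6.77 and 6.76 against 6.46 and 6.41. Prf1, which encodes perforin, was at 4.75 and 4.95 against 4.11 and 4.45, and the IL-4 receptor gene Il4ra at 5.87 and 6.15 against 5.43 and 5.75. In each of these 3, and likewise in Il2ra, Il2rb and Id2, the groups were apart by less than 0.4. Socs1 and the kinase gene Pim1, both cytokine-induced, were lower in both DKI libraries by log2 differences of -0.25 and -0.24. Il2, Foxp3 and Socs3 overlapped between the groups.

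Antigen receptor segments and unnamed gene models are left aside here. Among other genes with alike differences in both replicates, a transporter gene and an acute phase gene had the widest gaps on the lower side. Slc15a2 (chr16:36750161-36785158), the gene of a proton-coupled peptide transporter, was at 2.49 and 3.60 in the WT and 0.42 and 0.00 in the DKI libraries, and DKI replicate 2 is listed without reads. Its log2 difference was -2.83 (SE 0.33, limma adjusted p 0.0659). Saa3 (chr7:46711998-46719615), an acute phase gene, was at 3.42 and 2.17 in the WT and 0.60 and 0.45 in the DKI libraries (log2 difference -2.26, SE 0.38, limma adjusted p 0.093). Both genes kept the groups well apart, Slc15a2 with its lowest DKI library in replicate 2 and Saa3 with its highest WT library in replicate 1. Both were under 1 RPKM in both DKI libraries and passed the filter only through the WT libraries, where they are high. Among the genes with alike differences, receptor segments and unnamed models aside, Tldc2 followed at 2.23 and 2.27 against 1.25 and 0.55. Prg4, which encodes the lubricant proteoglycan lubricin, was at 2.30 and 2.04 against 1.26 and 1.16. Rhod, a small GTPase gene of endosome transport, was at 2.60 and 2.33 against 1.55 and 1.58. The plot of the widest gaps shows all 15 genes of this side and the 15 of the other by library.

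**Figure D1:**
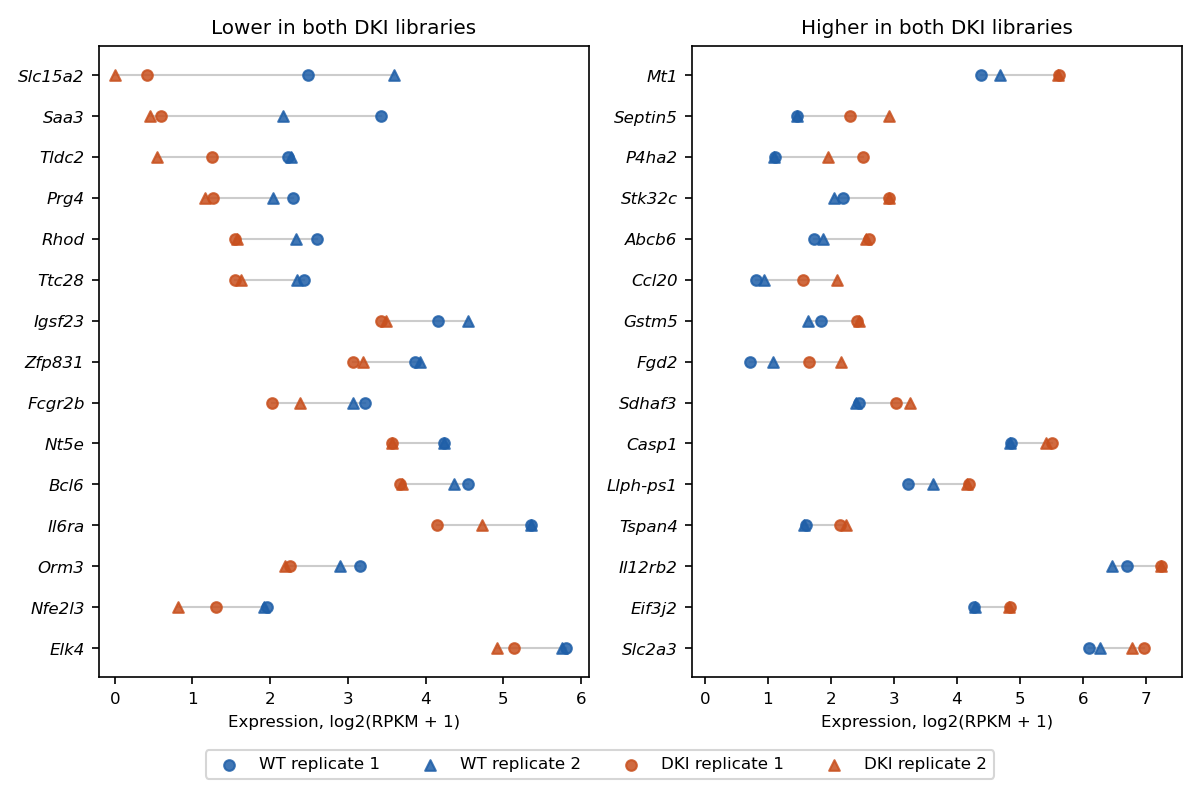
Level of the 15 genes per direction with the widest gap between the groups, on a linear axis of log2(RPKM + 1). The ranking is among genes with alike differences in both replicates, without antigen receptor segments and unnamed gene models. Circles are replicate 1 and triangles replicate 2, blue for WT and orange for DKI, and a grey line spans the 4 libraries. In every row both orange symbols lie on one side of both blue symbols, with the widest gap for Slc15a2 (2.49 and 3.60 against 0.42 and 0.00).

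Further genes on this side had narrower gaps. Nt5e, the gene of the ectoenzyme CD73 that makes adenosine and is typical of regulatory and memory T cells, was at 4.24 in both WT libraries and at 3.57 in both DKI libraries. Its log2 difference was -0.66 (SE 0.18, limma adjusted p 0.157). Igsf23 was at 4.16 and 4.54 against 3.43 and 3.49, and Zfp831, a zinc finger gene, at 3.86 and 3.93 against 3.07 and 3.19. Elk4, a serum response factor partner, was at 5.81 and 5.75 against 5.14 and 4.92. The remaining genes of this group were Ttc28, Orm3 and Nfe2l3, with log2 differences of -0.80, -0.81 and -0.88, and Fcgr2b, described with the myeloid markers. Ssh2, Zfp652 and Itpr2, outside the naming rule, shared the smallest adjusted p of limma with Slc15a2 at 0.0659, with log2 differences of -0.73, -0.66 and -0.66.

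The receptor genes for IL-6 and some genes of follicular helper T cells were on the lower side. Il6ra, which encodes the IL-6 binding chain, was at 5.35 in both WT libraries and at 4.15 and 4.72 in DKI cells (log2 difference -0.92, SE 0.21, limma adjusted p 0.129). Il6st, which encodes the signalling chain gp130, was at 5.67 and 5.51 in the WT and 4.48 and 4.90 in the DKI libraries, a log2 difference of -0.90 (SE 0.27, limma adjusted p 0.17). Both receptor genes were lowest in DKI replicate 1 and did not overlap. Bcl6 (chr16:23965050-23988866), the repressor that defines follicular helper cells and opposes STAT5 signals, had a log2 difference of -0.77 (SE 0.13, limma adjusted p 0.093) from the library values given above. Cxcr5, the receptor that leads these cells into B cell follicles, was at 4.20 and 3.98 against 3.52 and 3.35. Tox was at 4.15 and 3.85 against 3.13 and 3.35. Of 15 tested follicular helper genes, 6 were lower and 0 higher in both DKI libraries (40% against 20.1% of all genes). The 6 include Il6ra, given above, and Btla, which barely separated, at 5.15 and 4.93 against 4.65 and 4.92. The list's median log2 difference was -0.19. Pdcd1, Icos and Il21 overlapped between the groups, as did every other tested member outside those 6. Of the 15, 4 had a log2 difference above 0. Without DKI replicate 1 the median was -0.51, without DKI replicate 2 it was -0.33, without WT replicate 2 it was -0.31, and without WT replicate 1 it was -0.14.

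On the higher side, under the same conditions, the widest gap was that of Mt1 (chr8:94178883-94180327), which encodes a zinc and copper binding metallothionein. It was at 4.38 and 4.69 in the WT and 5.62 and 5.61 in the DKI libraries, a log2 difference of 1.08 (SE 0.12, limma adjusted p 0.0659). Its neighbour in function Mt2 overlapped, at 4.50 and 3.95 against 5.42 and 4.46. P4ha2, a collagen prolyl hydroxylase gene induced by low oxygen, was at 1.11 and 1.10 against 2.51 and 1.95. Slc2a3, the gene of the glucose transporter GLUT3, was at 6.10 and 6.27 against 6.98 and 6.79. The DKI libraries of these 2 genes lay at 0.53 or more above the nearest WT library. Abcb6, a mitochondrial porphyrin transporter gene, was at 1.73 and 1.88 against 2.61 and 2.56, and Stk32c, a kinase gene, at 2.19 and 2.05 against 2.93 in both DKI libraries. Ccl20, the chemokine that Th17 cells make for CCR6, was at 0.81 and 0.94 against 1.55 and 2.09. It was under 1 RPKM in both WT libraries and passed the filter only through the DKI libraries. Septin5, Fgd2, Gstm5, Sdhaf3 and Tspan4 were also on this side, with log2 differences of 1.16, 1.01, 0.69, 0.72 and 0.61. Eif3j2 and Llph-ps1 separated the groups as well, but they are near-identical copies of other genes, so their reads are uncertain. Nudcd2, outside the naming rule, stood at 4.72 and 4.85 against 5.43 and 5.34.

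Tbx21, Il12rb2 and Casp1 were higher in both DKI libraries, while the Th1 list as a whole was not. Tbx21, which encodes the Th1 regulator T-bet, was at 4.48 and 4.31 in the WT and 4.92 and 5.13 in the DKI libraries (log2 difference 0.63, SE 0.24, limma adjusted p 0.249). Il12rb2, the inducible chain of the IL-12 receptor, had a log2 difference of 0.66 (SE 0.13, limma adjusted p 0.106). Casp1, the inflammasome protease gene, was at 4.86 and 4.85 against 5.51 and 5.42, a log2 difference of 0.61 (SE 0.10, limma adjusted p 0.093). Ifng, the main cytokine gene downstream of T-bet, overlapped, at 9.23 and 8.32 against 8.60 and 8.80. Of 14 tested Th1 genes, 2 were higher and 1 was lower in both DKI libraries (14.3% and 7.14%). The shares of all genes were 19.9% and 20.1%. Thus the receptor and the regulator separated the groups while most of the Th1 list did not.

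Among cytokine genes, Csf2 (GM-CSF) was at 6.10 and 5.63 in the WT and 7.26 and 6.30 in the DKI libraries. Il3, its neighbour on the chromosome, was at 2.08 and 2.94 against 3.10 and 3.42. Il13, a type 2 cytokine gene, was at 3.13 and 4.40 against 4.84 and 6.05. Its differences within replicate 1 and replicate 2 were 1.71 and 1.66, and its log2 difference was 1.68 (SE 0.45, limma adjusted p 0.155). Each DKI library thus exceeded the WT library of the same number by a like amount, although WT replicate 2 and DKI replicate 1 were close. Il4 and Il5 were below the filter, and Gata3 was at 5.06 and 5.01 against 4.68 and 4.92. Of 21 tested genes linked to pathogenic Th17 cells, 6 were higher and 2 lower in both DKI libraries (28.6% and 9.52%). Over all genes these shares were 19.9% and 20.1%. The lower ones were Il22, at 4.47 and 4.65 against 4.26 and 3.33, and the chemokine gene Ccl3. The list's median exon length was 1.59 kb. In the length decile with a median of 1.56 kb, 28.2% of all genes were higher and 8.9% lower.

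Signature Th17 genes split the DKI libraries from each other. Il17a was at 8.67 in both WT libraries, at 10.38 in DKI replicate 1 and at 7.57 in DKI replicate 2. Il17f was at 7.49 and 7.64 against 8.61 and 5.51. The receptor genes Ccr6 (4.90 and 4.33 against 5.24 and 2.80) and Il23r (3.61 and 3.44 against 4.05 and 2.40) had the same order. In each of these 4 genes DKI replicate 1 was the highest and DKI replicate 2 the lowest of the 4 libraries. A mean of the DKI group would describe neither library. Over the 25 genes of the Th17 list, the median difference was 0.44 within replicate 1 and -0.35 within replicate 2.

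Genes of naive and memory T cells were mostly lower in DKI cells. All 20 were tested, and 15 were lower in both DKI libraries and 0 higher (75%, against 20.1% of all genes). The DKI library was below the WT library of the same number in both replicates for 19 of 20, against 29.4% of all genes. Their median log2 difference was -0.57, with -0.84 within replicate 1 and -0.31 within replicate 2. Tcf7, the regulator of T cell self-renewal, was at 9.29 and 9.48 in the WT and 8.08 and 9.05 in the DKI libraries. Lef1, its homologue, was at 7.53 and 7.58 against 6.70 and 7.30, and Bach2, a repressor of effector genes, at 5.01 and 5.09 against 4.03 and 4.63. Igfbp4 was at 5.93 and 6.87 against 5.10 and 5.65, the widest separation for a gene with alike differences in the list. The homing genes Ccr7 and Klf2 were lower in both DKI libraries too, while S1pr1 overlapped. In this list DKI replicate 1 was the lowest library for most members. The median was -0.22 without DKI replicate 1 and -0.96 without DKI replicate 2. Library medians were 6.49, 6.84, 5.65 and 6.38.

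**Figure D2:**
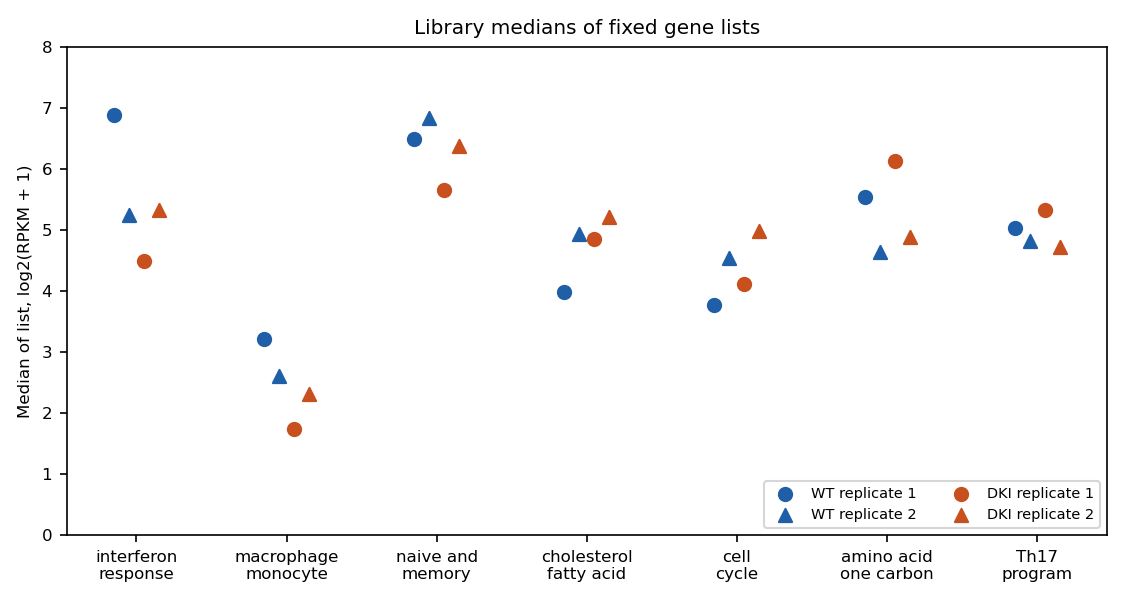
Median level of the tested members of 7 gene lists in each library, in log2(RPKM + 1). Circles are replicate 1 and triangles replicate 2, blue for WT and orange for DKI. For the interferon response WT replicate 1 stands at 6.89 above the other libraries (4.49 to 5.33), and for the amino acid list both replicate 1 libraries lie above both replicate 2 libraries.

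Regulatory T cell genes were near the background. Of 18 such genes, 4 were lower and 2 higher in both DKI libraries (22.2% and 11.1%, against 20.1% and 19.9% of all genes), and their median log2 difference was 0.12. Lrrc32, which encodes the TGF-β docking protein GARP, was at 4.46 and 4.19 in the WT and 3.66 and 3.60 in the DKI libraries, a log2 difference of -0.70 (SE 0.16, limma adjusted p 0.13). Ikzf2, the gene of the regulator Helios, was at 5.11 and 4.55 against 4.40 and 3.62. Foxp3, which defines these cells, overlapped, at 5.30 and 4.83 against 4.85 and 4.47. Of 7 tested genes of nonpathogenic Th17 cells, 4 were lower and 0 higher (57.1%, against 20.1% of all genes lower). This list has the longest genes of all lists, with a median exon length of 7.85 kb, and 45.9% of all genes in the longest decile by length were lower. They were Il6st, Tgfbr2, which encodes a TGF-β receptor chain (6.62 and 6.80 against 6.09 and 6.46), Ikzf3 (5.70 and 5.24 against 5.12 and 4.60) and Foxp1. Il10, Maf and Ahr, the other tested members, overlapped.

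Survival and costimulation genes were divided. Bcl2l11, the gene of the death-promoting protein BIM, was at 3.94 and 4.21 in the WT and 3.21 and 3.68 in the DKI libraries. Bax, another death-promoting gene, was at 6.14 and 6.21 against 6.39 and 6.44. Over 19 genes of this list 4 were higher and 3 lower in both DKI libraries (21.1% and 15.8%), near the background. The OX40 ligand gene Tnfsf4 was at 3.10 and 3.03 against 2.15 and 2.53, whereas the 4-1BB ligand gene Tnfsf9 was at 3.43 and 3.68 against 3.95 and 4.37. The inhibitory receptor gene Vsir was lower in both DKI libraries, at 5.95 and 5.88 against 5.53 and 5.44. Of 42 ribosomal protein genes 12 were higher and 1 lower (28.6% and 2.38%), with a median log2 difference of 0.08 that was 0.25 within replicate 1 and -0.01 within replicate 2. These genes are short, with a median exon length of 1.08 kb, and 28.4% of all genes in the shortest decile by length were higher.

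Interferon response genes had the largest list median, and it came from replicate 1. These genes are switched on by type I interferon at the interferon-stimulated element, for which the core (GAAA, any 2 bases, GAAA) was searched on either strand. The core occurred in 58.3% of the windows of this list (21 of 36) and in 3.2% of all windows, and the GAS and interferon cores overlapped in 11 of all 11027 windows. The RefSeq windows of Isg15 (chr4:156200769-156201068, minus strand) and Ifit1 (chr19:34640639-34640938, plus strand) are shown in the same way, with interferon cores in capitals, because these genes are typical of the list. In Isg15 the 3 cores overlap each other, and in Ifit1 the 2 cores appear as their reverse complement. Slfn5 (chr11:82951852-82952151, plus strand, 1 core) is shown as the member that kept the groups furthest apart.
Isg15: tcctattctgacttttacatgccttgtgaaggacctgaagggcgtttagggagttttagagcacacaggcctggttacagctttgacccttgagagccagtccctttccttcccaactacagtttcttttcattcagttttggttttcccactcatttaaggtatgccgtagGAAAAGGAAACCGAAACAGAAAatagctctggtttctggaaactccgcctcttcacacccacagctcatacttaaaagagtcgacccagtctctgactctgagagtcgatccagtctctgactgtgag
Ifit1: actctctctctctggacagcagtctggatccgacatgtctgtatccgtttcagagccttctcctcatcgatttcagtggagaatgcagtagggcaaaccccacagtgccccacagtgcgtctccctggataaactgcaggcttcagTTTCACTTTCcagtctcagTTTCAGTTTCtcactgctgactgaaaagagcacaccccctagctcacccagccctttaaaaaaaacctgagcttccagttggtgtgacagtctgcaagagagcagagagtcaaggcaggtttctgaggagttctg
Slfn5: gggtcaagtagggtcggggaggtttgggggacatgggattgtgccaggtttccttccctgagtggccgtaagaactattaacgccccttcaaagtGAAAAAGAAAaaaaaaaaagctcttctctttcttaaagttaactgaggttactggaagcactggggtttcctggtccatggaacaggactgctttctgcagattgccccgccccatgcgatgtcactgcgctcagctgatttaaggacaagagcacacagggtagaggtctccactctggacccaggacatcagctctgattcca

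Isg15, a ubiquitin-like antiviral modifier gene, was at 8.26 in WT replicate 1, at 5.49 in WT replicate 2, and at 5.0 and 5.78 in DKI cells. Ifit1 was at 7.78 and 5.17 in the WT and 4.02 and 5.20 in the DKI libraries, and Slfn5 at 7.59 and 5.60 against 4.64 and 5.24. WT replicate 1 was the highest library and DKI replicate 1 the lowest in each of the 3 genes. The list's 43 tested members had a median log2 difference of -1.19, with -2.37 within replicate 1 and 0.07 within replicate 2. Both DKI libraries were below both WT libraries for 13 members (30.2%, against 20.1% of all genes) and above them for 0. Of these 13, 0 had alike differences in both replicates. The nearest libraries differed by -0.36 (DKI minus WT) for Slfn5, the widest gap, and by -0.01 for Ddx58, the narrowest. Without WT replicate 1 the median was -0.35 and without WT replicate 2 it was -1.91. Irf7 (8.93 and 6.92 against 5.91 and 7.09), a regulator of this response, likewise had WT replicate 1 highest and DKI replicate 1 lowest. The list was thus nearly level within replicate 2, and a genotype difference and a difference of WT replicate 1 cannot be told apart here.

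**Figure D3:**
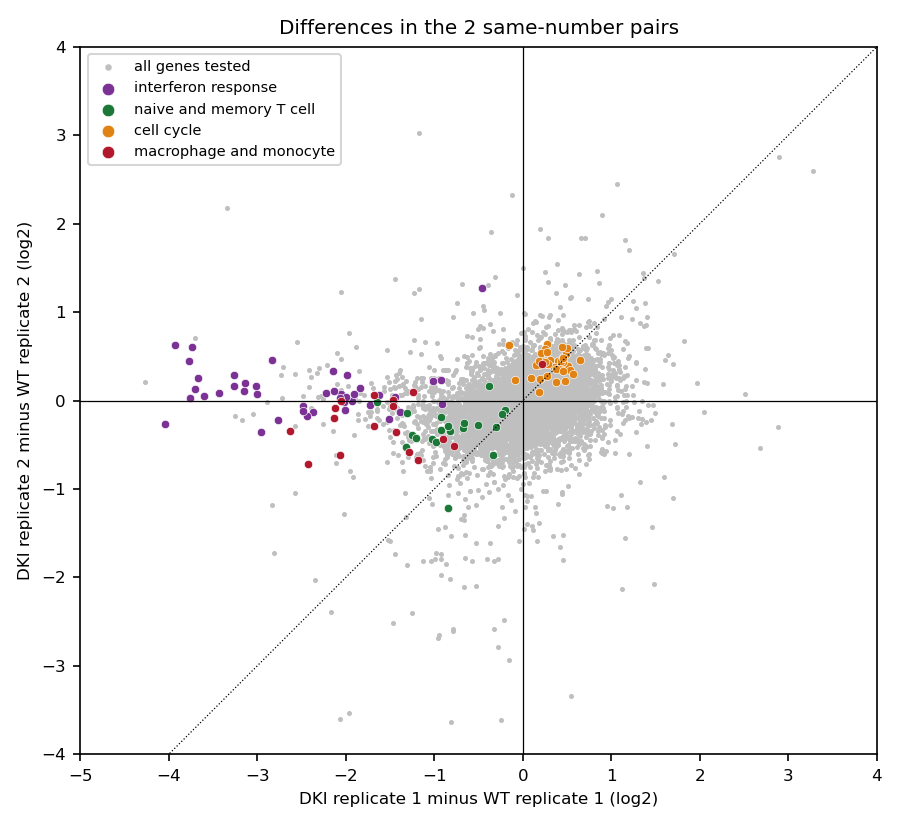
DKI minus WT difference in log2(RPKM + 1) within replicate 1 (horizontal axis) and within replicate 2 (vertical axis) for each of 11078 genes (grey), with 4 lists coloured. The dotted line marks equal differences. Interferon genes (purple) spread along the horizontal axis near a vertical value of 0, naive and memory genes (green) lie mostly below 0 on both axes, and cell cycle genes (orange) lie mostly above 0 on both.

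Metabolic and proliferation genes were mostly on the higher side. All 38 cell cycle genes had a log2 difference above 0 and 36 were higher in DKI in both replicates, against 38% of all genes, yet 0 of 38 separated the groups. Library medians were 3.77 and 4.54 (WT) and 4.12 and 4.99 (DKI), so replicate 2 was higher than replicate 1 in both genotypes. Mki67, a proliferation marker, was at 5.15 and 5.80 against 5.52 and 6.16, and the ribonucleotide reductase gene Rrm2 at 4.97 and 6.54 against 5.41 and 7.15. The list's median of 0.37 (0.30 and 0.44 within the replicates) was -0.07 without WT replicate 1 and -0.11 without DKI replicate 2. It was 0.77 without WT replicate 2 and 0.84 without DKI replicate 1.

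Genes for amino acid uptake and one-carbon metabolism had the opposite order of replicates. Their library medians were 5.54 and 4.64 (WT) and 6.13 and 4.89 (DKI). Of 23 members, 22 were higher in DKI in both replicates, against 38% of all genes. Atf5, a gene of the amino acid stress response, was at 5.85 and 3.01 in the WT and 6.94 and 3.26 in the DKI libraries. Psat1, an enzyme of serine synthesis, was one of 5 members that separated the groups (21.7%, against 19.9% of all genes), at 6.15 and 5.81 against 6.96 and 6.40. The lactate and pyruvate carrier gene Slc16a1 was another, at 4.35 and 4.70 against 4.85 and 5.10.

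Glycolysis and hypoxia genes separated the groups in 10 of 29 cases on the higher side (34.5%) and in 1 on the lower (3.45%). Among all genes, 19.9% were higher and 20.1% lower. The list's median log2 difference was 0.37. Besides Slc2a3 and P4ha2 the higher members included Slc2a1, the gene of GLUT1, at 4.57 and 4.70 against 5.06 and 4.96. Some of the 10 gaps were narrow, such as 0.04 for Gpi1 and 0.09 for Gapdh. Ldha (8.23 and 9.12 against 8.68 and 9.52) was higher in each DKI library than in the WT library of the same number, but its groups overlapped. Gapdh is given at a lower level than Aldoa or Ldha, and its many processed copies make its reads uncertain. Of 39 oxidative phosphorylation genes, 37 were higher in DKI in both replicates, against 38% of all genes. Their median log2 difference was 0.18, and their median exon length was 1.11 kb. In 9 the groups separated (23.1%), against 19.9% of all genes and 28.4% of the shortest decile by length. Examples are the complex I genes Ndufv1 (5.31 and 5.54 against 5.71 and 5.90) and Ndufa1 (5.78 and 5.94 against 6.12 in both DKI libraries).

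For cholesterol and fatty acid synthesis, 9 of 33 genes separated the groups on the higher side (27.3%) and 0 on the lower. The shares of all genes were 19.9% and 20.1%. This list had a median log2 difference of 0.55. Scd2, a fatty acid desaturase gene, was at 6.34 and 7.74 against 7.92 and 7.93. WT replicate 1 was the lowest library for this gene, and the list's library medians were 3.98, 4.93, 4.86 and 5.21. The median within replicate 1 was 0.89 and within replicate 2 it was 0.13, and without WT replicate 1 it was -0.01. It was 0.97 without WT replicate 2 and 0.31 without DKI replicate 2.

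**Figure D4:**
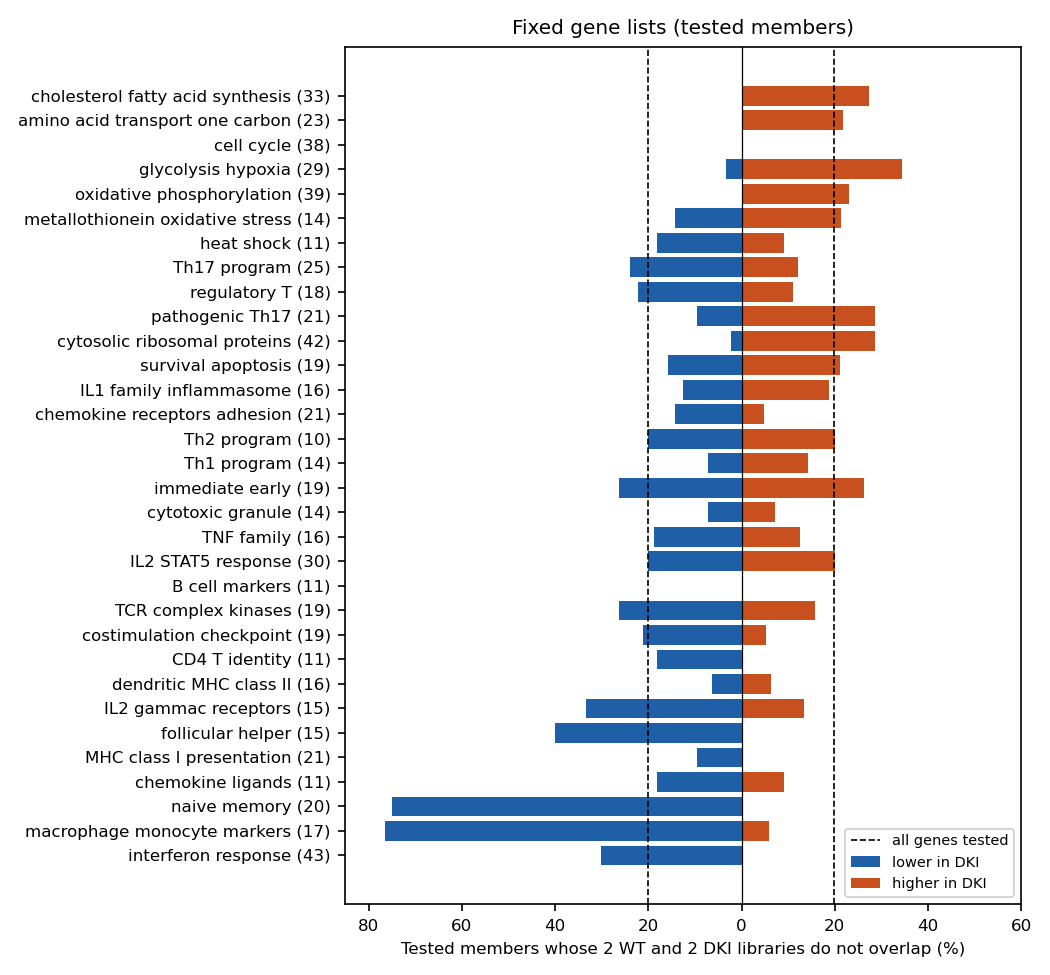
Share of each list's tested members whose WT and DKI libraries do not overlap, with lower in DKI to the left (blue) and higher to the right (orange). Lists with at least 10 tested members are shown. The number tested is in parentheses and the dashed lines mark all genes (20.1% lower, 19.9% higher). Lists are ordered by median log2 difference, and naive and memory genes (75%) and macrophage markers (76.5%) extend furthest to the left.

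Most macrophage and neutrophil markers that passed the filter were lower in both DKI libraries. The filter needs 1 RPKM in only 2 of the 4 libraries. A marker that passes through the WT libraries alone, as Saa3 did, is lower in DKI cells by that rule. Of 30 macrophage and monocyte markers 17 passed the filter. Of these, 13 were lower and 1 was higher in both DKI libraries (76.5% and 5.88%, against 20.1% and 19.9% of all genes). Their median log2 difference was -0.92, with -1.47 within replicate 1 and -0.29 within replicate 2, and it was -0.55 without WT replicate 1. Their summed levels were 469.2 and 304.1 RPKM in WT and 201.5 and 306.5 RPKM in DKI cells. Lyz2, the lysozyme gene of myeloid cells, was at 4.73 and 3.82 against 2.10 and 3.46, and Fcgr2b, an inhibitory Fc receptor gene that B cells and macrophages express, at 3.22 and 3.06 against 2.03 and 2.39. Lyz1 was at 0 in all 4 libraries. Neutrophil markers, which include Saa3, passed the filter in 7 of 16 cases. Of these 7, 4 were lower (57.1%, against 20.1% of all genes) and 0 higher in both DKI libraries. Their summed levels were 30.6 and 30.9 RPKM against 15 and 11.3 RPKM, while Elane and Retnlg were at 0 in all 4. In bulk RNA, fewer cells of a type and less RNA per cell cannot be told apart. The part of these markers in the differences of Saa3, Slc15a2, Thbs1 and the interferon list was not tested.

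The listed B cell markers were divided more by replicate number than by genotype, unlike Ighd2-3 and the kappa segment given above. Igkc, the kappa light chain gene, was at 6.49 and 8.86 in the WT and 7.16 and 9.18 in the DKI libraries. Jchain, a plasma cell gene, was at 1.62 and 4.20 against 2.19 and 4.88. The summed levels of 11 B cell markers that passed the filter were 475.8 and 1124.6 RPKM in WT and 468.3 and 1328.9 RPKM in DKI cells, and 0 of them separated the groups.

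The direction of a difference also went with gene length. Genes lower in both DKI libraries had a median exon length of 4.57 kb and genes higher had 2.58 kb, against 3.22 kb for all. Among the longest decile of genes (median 8.39 kb), 45.9% were lower and 7.6% higher in both DKI libraries. Among the shortest decile (1.02 kb), 9.6% were lower and 28.4% higher. Spearman's rho between length and log2 difference, across 10652 genes that are not independent replicates, was -0.28, with -0.22 within replicate 1 and -0.29 within replicate 2. The lists sit at different lengths, with a median of 1.11 kb for oxidative phosphorylation, 3.67 kb for naive and memory genes and 1.64 kb for macrophage markers. The part of length in the differences of these lists was not tested.

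**Figure D5:**
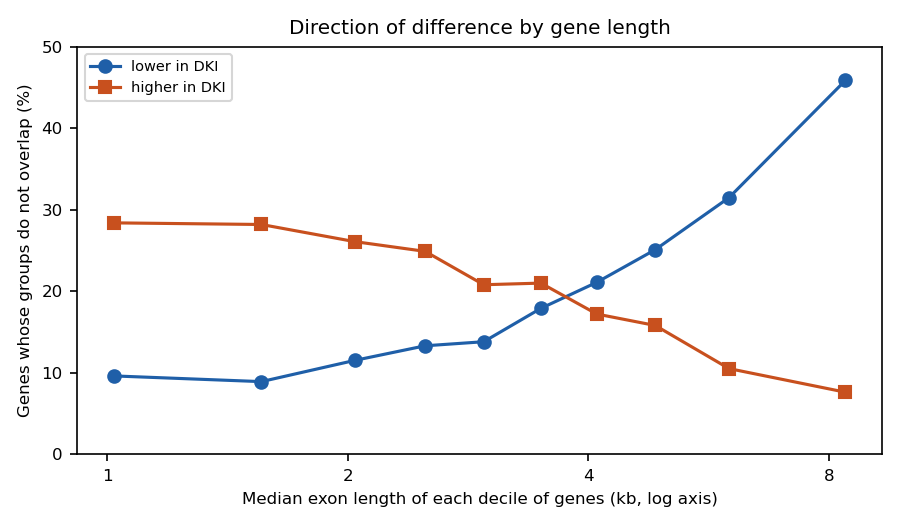
Share of genes whose WT and DKI libraries do not overlap, in deciles of genes by exon length, against the median length of each decile in kb (log axis). Blue circles are genes lower and orange squares genes higher in both DKI libraries. The lower share runs from 9.6% in the shortest decile to 45.9% in the longest, and the higher share from 28.4% to 7.6%.

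The DKI genotype was sequenced again in 3 libraries of the CCL17 experiment that were expanded without CCL17, with no WT library beside them. They give further levels but no comparison with WT, since the experiment and the genotype cannot be told apart there. Slc15a2 was at 0.48, 0.86 and 0.64 in them, and Bcl6 was at 2.99, 3.32 and 3.34. Mt1 was at 5.77, 5.80 and 5.73, next to the DKI libraries at 5.62 and 5.61. Saa3 was instead at 6.11, 6.65 and 6.85, far above all 4 libraries compared here. The median of the macrophage markers was 6.00 to 6.62 in these libraries, against 1.74 to 3.22 in the 4 compared here.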

How the data were processed

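Libraries of mRNA were prepared with a KAPA HyperPrep kit, per the labels' protocols. Reads were handled with Subread and featureCounts and build mm10, per the submitters' processing notes. Tool versions are not given in the sources used here.

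Values came from a deposited table with 1 value per gene and library, made by the authors as log2(RPKM + 1). Read in base 2 and weighted by exon length the values summed to 1142000 to 1145000 in the 4 libraries and in base e to 9110000 to 9700000, and base 2 is near the total that RPKM implies. Unread genes carry 0.0001, which was set to 0. Read totals were estimated from genes with up to 5 reads, of which 74.1% to 76.2% came out within 0.1 of a whole number (20% by chance). Symbols of 20857 of 21073 identifiers were matched to RefSeq. Another 3 value columns, of myeloid cells, were not used here.

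limma 3.58.1 in R 4.3.3 was fitted to all 10 Th17 libraries as 4 group means, with eBayes and a mean-variance trend, since 2 libraries a group give few degrees of freedom. The contrast was DKI minus WT, with Benjamini-Hochberg adjustment over 11078 genes, and a call needed an adjusted p under 0.05. A fold is a difference on the log2(RPKM + 1) scale, which understates that of low genes. The procedure was run on simulated data whose errors were independent between libraries. That setting leaves out the shared deviations of same-numbered libraries described below.

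The genes named are, per direction, the 15 with the widest gap between the groups among those with alike differences, 23 genes chosen for STAT5 and Th17 biology, and from each of 38 lists up to 4 members with alike differences, otherwise up to 2 with the largest difference. Unnamed models and receptor segments were left out of the rule. A few of the genes so chosen are not reported here. Other genes that appear as examples of lists were chosen after their values were seen. The comparison, lists and genes were chosen with earlier results of these data known. Alternatives were a pseudocount of 0.1, no filter, a filter of 5 RPKM, median centring, quantile normalization, each library left out, the 4 libraries only, a replicate block, and no trend.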

Additional observations from a re-analysis of the deposited data

How the results depend on the processing

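Depth was alike in the 4 libraries (18000000 to 20100000 estimated reads), and genes under the filter of 1 RPKM were not compared. Over 182 genes named by the rule or in the text, 2300 of 2336 combinations of gene and alternative kept the direction, 36 reversed it and 178 were called. The 23 genes that reversed were among the 37 whose groups overlap. Where groups do not overlap, leaving out a library cannot reverse the direction, so that agreement says nothing about stability. All 23 reversed on leaving out 1 library. The log2 difference then ran for Cish from -0.07 to 0.10, Cd4 from -0.05 to 0.16, Ccne2 from -0.11 to 1.21, Il2 from -1.02 to 0.49, Jchain from -0.72 to 1.97 and Ifng from -0.53 to 0.39. It ran for Icos from -0.73 to 0.46, Igkc from -0.69 to 1.69, Il2rg from -0.21 to 0.07, Ldha from -0.02 to 0.87, Maf from -0.52 to 0.07 and Rrm2 from -0.34 to 1.40. The range was for Il21 from -0.64 to 1.01, Stat5a from -0.10 to 0.00, Atf5 from -1.16 to 2.51, Il10 from -0.02 to 0.42, Il17a from -1.10 to 1.70 and Epcam from -0.72 to 0.09. Further ranges were for Ahr from -0.04 to 0.35, Ccr6 from -1.82 to 0.62, Il17f from -2.06 to 1.05, Il23r from -1.12 to 0.52 and Pdcd1 from -0.51 to 0.31. With quantile normalization Cish (-0.02) and Cd4 (-0.01) reversed too. Quantile normalization called 1 gene higher and 6 lower. Fitting the 4 libraries only, no trend, median centring, a pseudocount of 0.1, no filter and a filter of 5 RPKM called 0. Genes with the nearest libraries 2-fold apart numbered 8 higher and 19 lower with a pseudocount of 0.1, and 1 and 7 with a filter of 5 RPKM, where fewer genes are tested. Leaving out 1 library at a time, the calls ranged from 0 to 273 higher and from 1 to 286 lower. Genes that did not overlap then ranged from 3154 to 4462 higher and from 3287 to 4079 lower, and genes 2-fold apart from 5 to 57 higher and from 32 to 129 lower, since 3 libraries are easier to separate. The median of the cell cycle list ranged from -0.11 to 0.84, that of cholesterol synthesis from -0.01 to 0.97, of follicular helper genes from -0.51 to -0.14, and of naive and memory genes from -0.96 to -0.22. The interferon median ranged from -1.91 to -0.35 and the macrophage median from -1.25 to -0.55. The median of all genes stayed within 0.1 of 0 under each scaling.

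The labels do not say that replicate numbers pair the libraries. The deviations of same-numbered libraries from their group means correlated at 0.45 across genes, with 2 pairs only, so the block is a description. With the replicate block in the fit of 10 libraries, 811 genes were called higher and 470 lower, with a smallest adjusted p of 0.00904 in limma, and 111 of the 182 genes above were among those called. With the replicate block in the fit of the 4 libraries alone, 0 were called and the smallest adjusted p was 0.336.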
